A study of Mus musculus with 40 samples.

Results

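The genes described here were 39 interferon response genes, measured by RNA sequencing in mouse aortas and kidneys. They were chosen as a named list of genes known to be induced by interferon, with earlier results of these data known. All 39 were found among the 55335 genes of the aorta table and the 55382 genes of the kidney table, and all 39 passed the filter on low counts that left 15122 genes in aortas and 15943 in kidneys for testing. The study asked what loss of the epidermal growth factor receptor (EGFR) in endothelial cells does to vessels and kidneys under a high-fat diet (HFD). Each tissue gave 20 libraries, 5 for each of 4 groups, so that there were 8 groups and 40 libraries in all. EC-EGFR-KO mice (KO) carried floxed Egfr alleles and Cre recombinase under the Tie2 (Tek) promoter, and their wildtype controls (WT) carried the same Cre without floxed alleles. The floxed mice were C57BL/6 and the Cre line, B6.Cg-Tg(Tek-cre)1Ywa, was of C57BL/6J background. Standard fat diet (SFD) held 10% of its energy as fat and HFD 60%. HFD was fed for 18 weeks from an age of 6 weeks, after a period on a mix of both diets from about 5 weeks. Tie2-Cre is also active in cells of the blood lineage, so that the KO was not limited to endothelium. The labels gave neither sex nor collection time. Nothing in them said how samples were collected within a group, so p-values measure the spread between these libraries.

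Cells that detect viral nucleic acid or receive interferon switch on a common set of genes. Type I and III interferons act through receptors whose signal brings STAT2 and IRF9 to the interferon-stimulated response element (ISRE), whereas interferon gamma acts mainly through the gamma-activated site (GAS). The products sense viral RNA, block viral replication, attach the ubiquitin-like protein ISG15 to other proteins, build GTPase coats around intracellular pathogens and load peptides onto MHC class I molecules. In vessel wall and kidney such genes are expressed at a basal level by endothelial, epithelial and resident immune cells. By role the 39 members were 4 RNA and DNA sensors (Ddx58, which encodes RIG-I, Ifih1, which encodes MDA5, Dhx58 and Zbp1), 4 transcription factors (Irf1, Irf7, Irf9 and Stat2) and 4 genes of the ISG15 system (Isg15 itself, the deconjugating enzyme Usp18, and the ligases Herc6 and Trim25). A further 18 were antiviral effectors and other induced genes, such as Ifit1, Oas2, Mx1 and Lgals3bp. The last 9 were 5 interferon-inducible GTPases (Gbp2, Gbp3, Igtp, Irgm1 and Iigp1) and 4 genes of antigen processing (the proteasome subunits Psmb8 and Psmb9, the peptide transporter Tap1, and B2m, the light chain of MHC class I).

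The promoter sequences of the members are shown first for the 4 genes that rose under HFD in kidneys and for 3 widely used interferon response genes. RefSeq promoters of build GRCm38.p6, each a window of 300 bases with 250 before and 50 after the start, matched 30 of the 39 members. Dhx58, Zbp1, Usp18, Oas2, Mx1, Mx2, Rtp4, Parp14 and Iigp1 were not matched. The core ISRE letters GAAANNGAAA, searched on both strands, occurred in 15 of the 30 promoters (50%) and in 3.99% of the 27025 genes with a promoter. The GAS letters TTCNNNGAA occurred in 8 of the 30 (26.7%) and in 9.55% of all genes. Both motifs occurred in 4 members and neither in 11, and matches may overlap. By role the ISRE letters were found in 4 of 4 GTPase genes, 2 of 2 sensors, 6 of 13 antiviral genes, 1 of 3 genes of the ISG15 system, 1 of 4 transcription factors and 1 of 4 genes of antigen processing. Capitals mark matches to GAAANNGAAA on either strand, and a match describes letters and not a bound site. The first 5 lines give the 150 bases before the start on the gene's strand: Lgals3bp at chr11:118401960-118402109 (minus strand), B2m at chr2:122147537-122147686 (plus), Isg15 at chr4:156200819-156200968 (minus), Ifit1 at chr19:34640739-34640888 (plus) and Gbp2 at chr3:142620513-142620662 (plus). The matches of Ddx58, at chr4:40239804-40239833 (minus), and Ifih1, at chr2:62646206-62646233 (minus), began at base 3 and base 33 of the transcript, and only the match with its flanks is given.
Lgals3bp: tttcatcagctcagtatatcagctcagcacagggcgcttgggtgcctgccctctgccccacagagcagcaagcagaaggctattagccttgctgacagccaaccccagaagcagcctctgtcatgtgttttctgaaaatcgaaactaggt
B2m: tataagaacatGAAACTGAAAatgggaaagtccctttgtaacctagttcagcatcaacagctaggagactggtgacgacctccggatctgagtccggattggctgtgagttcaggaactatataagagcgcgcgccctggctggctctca
Isg15: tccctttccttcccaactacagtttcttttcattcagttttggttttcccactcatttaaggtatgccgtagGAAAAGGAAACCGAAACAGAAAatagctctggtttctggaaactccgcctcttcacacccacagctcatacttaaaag
Ifit1: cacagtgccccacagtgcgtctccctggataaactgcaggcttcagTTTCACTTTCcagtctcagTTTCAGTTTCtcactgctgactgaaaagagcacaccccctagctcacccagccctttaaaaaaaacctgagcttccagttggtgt
Gbp2: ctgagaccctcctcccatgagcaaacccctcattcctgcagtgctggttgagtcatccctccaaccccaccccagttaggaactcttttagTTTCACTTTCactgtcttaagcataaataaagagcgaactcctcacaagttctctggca
Ddx58: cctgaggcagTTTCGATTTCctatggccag
Ifih1: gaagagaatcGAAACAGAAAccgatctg
Isg15 held a run of 3 overlapping matches, Ifit1 held 2 separate ones, and Gbp2, B2m, Ddx58 and Ifih1 held 1 each in the stretches shown. The stretch of Lgals3bp held none.

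Totals of counts assigned to genes ran from 17520161 to 36452741 in aortas and from 19643033 to 48833447 in kidneys. A pair of libraries in each tissue was nearly identical although the labels put them in different groups. Aorta R-1 (WT SFD) and R-12 (KO SFD) had a median chi-square of 0.0277 per gene, against 1.60 for the next closest pair. Kidney a1 (KO HFD) and a12 (WT HFD) had 0.0269, against 1.62. Both pairs differed by less than sampling noise, so that each pair may be 1 library. These libraries also had the largest totals of their tissue. R-1 and R-12 held 36419598 and 36452741 counts, against an aorta median of 1.97e+07. For a1 and a12 the totals were 48788716 and 48833447, against a kidney median of 2.42e+07. How this came about was not tested. Counts of calls are given with and without the pairs, and the members' medians where the pair moved them by over 1.5 times. Levels are given as FPM, fragments scaled to a common library size. Egfr, the deleted gene, did not differ between genotypes by the test in either tissue. In aortas it was at 39.6 ± 8.93 FPM (SD, n = 5) in WT on SFD and 40.5 ± 6.36 with HFD, and at 44.0 ± 5.70 and 44.5 ± 6.58 FPM in the respective KO groups. In kidneys the means were 56.3 ± 5.81, 40.5 ± 11.3, 53.1 ± 4.33 and 42.3 ± 10.4 FPM. Averaged over diets KO and WT differed by 0.14 ± 0.10 (SE) on the log2 scale in aortas (adjusted p = 0.729) and by -0.01 ± 0.12 in kidneys (adjusted p = 0.99). The counts cover all exons and all cells of the tissue, so that Egfr does not check the genotype labels here. In bulk tissue, fewer cells of a type and less RNA per cell cannot be told apart.

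The members were expressed at very different levels in both tissues. Expressed per kilobase of exon, B2m was highest, at 682 ± 95.2 FPM per kb in aortas and 350.4 ± 66.1 in kidneys (SD, n = 20). Bst2, which encodes the virus-tethering protein tetherin, followed at 42.9 ± 9.64 and 23.3 ± 4.75 FPM per kb. Next came Ifi35 in aortas at 17.8 ± 4.10 and Lgals3bp, a secreted glycoprotein, in kidneys at 19.9 ± 6.72 FPM per kb. The lowest members in aortas were Ifi44 (0.17 ± 0.11), Mx1 (0.21 ± 0.13) and Oas2 (0.43 ± 0.29). In kidneys they were Mx1 (0.36 ± 0.11), Mx2 (0.38 ± 0.088) and Oas2 (0.44 ± 0.13 FPM per kb). Mx1 and Mx2 encode dynamin-like GTPases and Oas2 an oligoadenylate synthetase that starts RNA decay.

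Between the tissues 29 of 39 members differed, 74.4%, against 86.5% of the 17514 genes tested in both tissues together. In aortas 14 were higher, against 42.6% of all genes, and 15 were lower. The strongest differences were in genes low in aortas. Ifi44 averaged 1.02 FPM in aortas and 12.5 FPM in kidneys, a log2 difference of -3.72 ± 0.18 (SE, adjusted p = 5.13e-21, edgeR). Rsad2, which encodes the antiviral enzyme viperin, averaged 4.12 against 40.6 FPM, a log2 difference of -3.33 ± 0.27. Trim25, a ligase that activates RIG-I, averaged 16.8 against 103 FPM (-2.62 ± 0.08), and the GTPase Irgm1 21.4 against 59.8 FPM (-1.50 ± 0.09). Lgals3bp was also lower in aortas, at 28.4 against 56.6 FPM (-0.94 ± 0.09). Genes higher in aortas included Gbp2 (37.1 against 15 FPM, 1.29 ± 0.12), Ifit2 (27.3 against 11.5, 1.25 ± 0.10), Ifi35 (30.7 against 14, 1.14 ± 0.09), B2m (587 against 301.4, 0.97 ± 0.06) and Bst2 (38.7 against 21.1, 0.88 ± 0.09). Ddx58 was level in the tissues, at 25.8 and 26.3 FPM with a log2 difference of -0.01 ± 0.05. The tissues were deposited as separate tables, so tissue and processing set cannot be told apart.

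**Figure D1:**
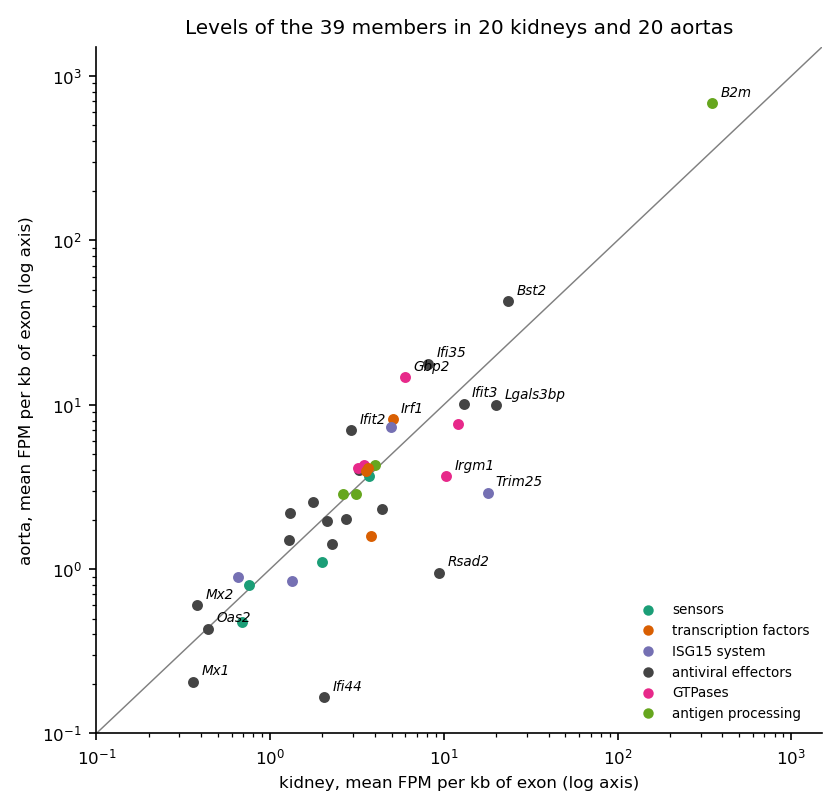
Mean level of each of the 39 members per kilobase of exon (FPM per kb, log axes) in 20 aorta libraries against 20 kidney libraries. B2m lies far above the others in both tissues, and Ifi44, Rsad2 and Trim25 lie on the kidney side.

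Under HFD a few members rose in kidneys, led by Lgals3bp. In WT kidneys 3 of 39 members passed the test (adjusted p below 0.05, edgeR quasi-likelihood test with Benjamini-Hochberg adjustment over all genes), all higher under HFD. That is 7.69% of members, against 6.71% of all genes tested, of which 3.03% were higher. In KO kidneys 3 of 39 passed, again higher, against 6.34% of all genes and 3.16% higher. Averaged over both genotypes 4 of 39 (10.3%) passed, all higher, against 16.4% of all genes and 7.7% higher. With both directions counted, the members' shares were thus near or below those of all genes. Counted for higher values alone they were above them, on 3, 3 and 4 members. With the thresholds of the study, a fold change over 1.5 and more than 5 FPM, 1 member passed in each genotype, against 2.18% of all genes in WT and 2.16% in KO. It was Lgals3bp.

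Lgals3bp, a glycoprotein that binds galectins, was at 28.8, 43.5, 27.4, 43.5 and 40.2 FPM in the WT SFD kidneys and at 62.9, 80.9, 77.0, 64.4 and 61.6 FPM in the WT HFD kidneys. In KO kidneys it was at 37.7, 26.8, 39.9, 38.2 and 46.4 FPM under SFD and at 81.1, 69.1, 59.5, 67.4 and 60.0 FPM under HFD. Every HFD library lay above every SFD library, in each genotype and in both together. The log2 difference was 0.92 ± 0.15 (SE, adjusted p = 0.000542) in WT, 0.84 ± 0.15 (adjusted p = 0.00114) in KO and 0.88 ± 0.11 (adjusted p = 5.84e-06) on average. Lgals3bp passed without any 1 library and in every alternative fit.

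The sensors were the role with the most members above the test on average over the genotypes, 2 of 4 (Ddx58 and Ifih1). In that comparison 16.4% of all genes passed, and 7.7% passed with higher values. With only 4 genes, the count is not a result about sensors as a role. All 4 were higher under HFD, with a median log2 difference of 0.31. Ddx58, which encodes the RNA sensor RIG-I, was at 19.4, 22.7, 21.1, 23.5 and 22.5 FPM in WT SFD and at 27.0, 27.4, 28.7, 28.7 and 31.1 FPM in WT HFD kidneys. KO kidneys held 20.5, 17.9, 19.1, 23.1 and 23.2 FPM under SFD and 27.6, 22.0, 31.2, 26.2 and 27.1 FPM under HFD. The diets did not overlap in WT, and in KO 1 HFD library lay within the SFD range. The log2 difference was 0.39 ± 0.09 (adjusted p = 0.0110) in WT, 0.37 ± 0.09 (adjusted p = 0.0152) in KO and 0.38 ± 0.06 (adjusted p = 0.000275) on average. The KO call was lost without a7 (adjusted p = 0.0513).

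Ifih1, which encodes the long-RNA sensor MDA5, was at 14.4, 14.1, 12.3, 15.1 and 12.8 FPM in WT SFD and at 17.3, 17, 16.7, 19.5 and 15.9 FPM in WT HFD kidneys. In KO it was at 16, 12.5, 11.8, 12.8 and 14 FPM under SFD and 17, 15.4, 17.3, 14.4 and 16.8 FPM under HFD. The WT diets did not overlap, whereas the KO diets did. The log2 difference was 0.33 ± 0.09 (adjusted p = 0.0306) in WT, 0.27 ± 0.09 in KO, which missed the threshold (adjusted p = 0.0842), and 0.30 ± 0.06 (adjusted p = 0.00248) on average. The WT call was lost without a11, a13, a14, a18 or a20 and without the near-identical pair (adjusted p = 0.0503). The other sensors gave 0.29 ± 0.18 (Dhx58) and 0.31 ± 0.14 (Zbp1) on average and did not pass.

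B2m, the subunit shared by all MHC class I molecules, was at 200.3, 263, 212, 253 and 254 FPM in WT SFD kidneys and 269, 368, 299, 274 and 314 FPM in WT HFD. In KO it was at 262, 200.1, 229, 282 and 267 FPM under SFD and 368, 356, 343, 338 and 269.8 FPM under HFD. The WT diets did not overlap, and in KO the lowest HFD library lay within the SFD range. The log2 difference was 0.37 ± 0.11 in WT, just short of the threshold (adjusted p = 0.0543), 0.43 ± 0.11 in KO (adjusted p = 0.0208) and 0.40 ± 0.08 on average (adjusted p = 0.00125). The KO call was lost without a1, a2, a7 or a8. No difference of the diet effect between genotypes passed the test for any member, so that the calls in 1 genotype only are not shown to differ from the other genotype.

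**Figure D2:**
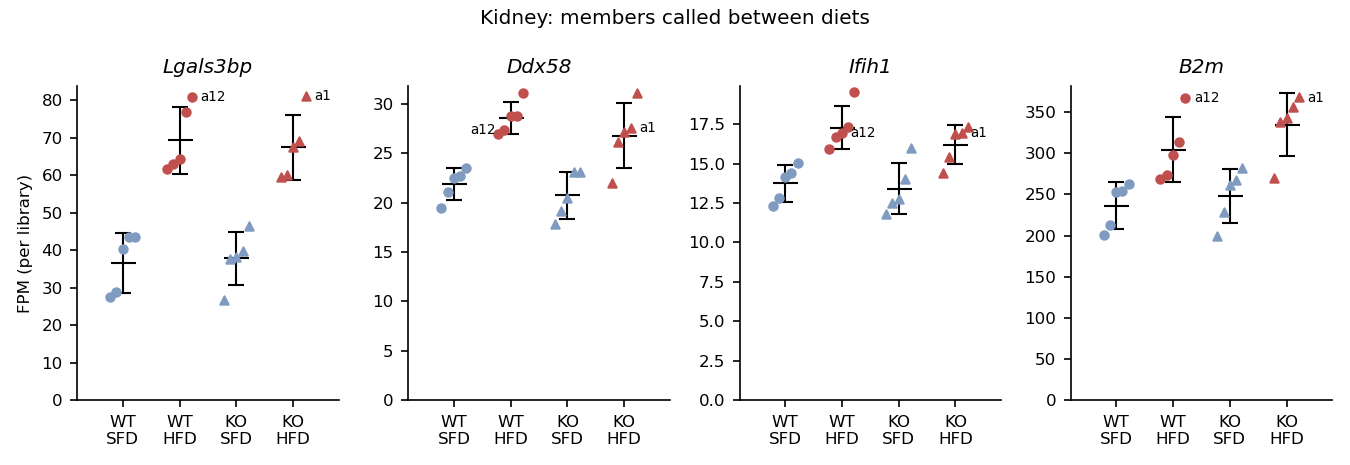
FPM of Lgals3bp, Ddx58, Ifih1 and B2m in each of the 20 kidney libraries by genotype and diet, points for libraries and bars for the mean ± SD (n = 5). Lgals3bp separates the diets completely in both genotypes, from 26.8 to 46.4 FPM under SFD and from 59.5 to 81.1 FPM under HFD.

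The other 35 kidney members did not pass on average over the genotypes. None of the 4 transcription factors passed, with log2 differences from -0.22 ± 0.21 for Irf1 to 0.20 ± 0.08 for Irf9. None of the ISG15 system passed: Isg15 itself was at -0.04 ± 0.17 and its deconjugating enzyme Usp18 at 0.20 ± 0.11. Of the 18 antiviral genes only Lgals3bp passed, while 15 had a positive difference and their median was 0.20. Widely used members also did not pass, such as Ifit1 (0.14 ± 0.14), Mx1 (0.23 ± 0.22), Rsad2 (0.29 ± 0.20) and Ifit3 (-0.08 ± 0.14). None of the 5 GTPase genes passed, and their differences ran from -0.12 for Igtp to 0.12 for Irgm1. Of the genes of antigen processing B2m alone passed, with Psmb9 at 0.21 ± 0.14, Psmb8 at 0.04 ± 0.12 and Tap1 at -0.10 ± 0.12.

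In WT kidneys 34 of 39 members had a positive diet difference, with a median of 0.23, against a median of 0.00 over all genes. In KO kidneys 23 of 39 were positive, with a median of 0.03. Without a1 and a12 that median was 0.01, with 20 of 39 positive, and 2, 3 and 4 members passed in WT, in KO and on average. Members whose 5 HFD libraries all lay above the 5 SFD libraries numbered 5 in WT (Lgals3bp, Ddx58, Ifih1, B2m and Xaf1), against 3% of all genes, and 1 in KO (Lgals3bp), against 3.74%. With both genotypes together 1 did (Lgals3bp), against 1.35%. Of the WT SFD kidneys, a16 and a18 had the lowest mean levels of the members, and a18 was the lowest of all 20 libraries for 14 of 39. Endothelial markers summed to 211 FPM in a16 and 156 FPM in a18, and to between 256 and 385 FPM in the other 18 kidneys. A KO SFD kidney, a7, was nearly as low as a16 in its mean of the members (-0.36 against -0.39). It was the lowest of 20 for 9 members, with an endothelial sum of 304 FPM. Without a16 and a18, and with a7 kept, the WT median was 0.06, 24 of 39 were positive and 1 member passed (Lgals3bp, 0.73). The average over genotypes then had a median of 0.09, 25 of 39 positive and the same 4 genes called. The part of endothelial RNA in these values was not tested beyond leaving out the libraries.

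**Figure D3:**
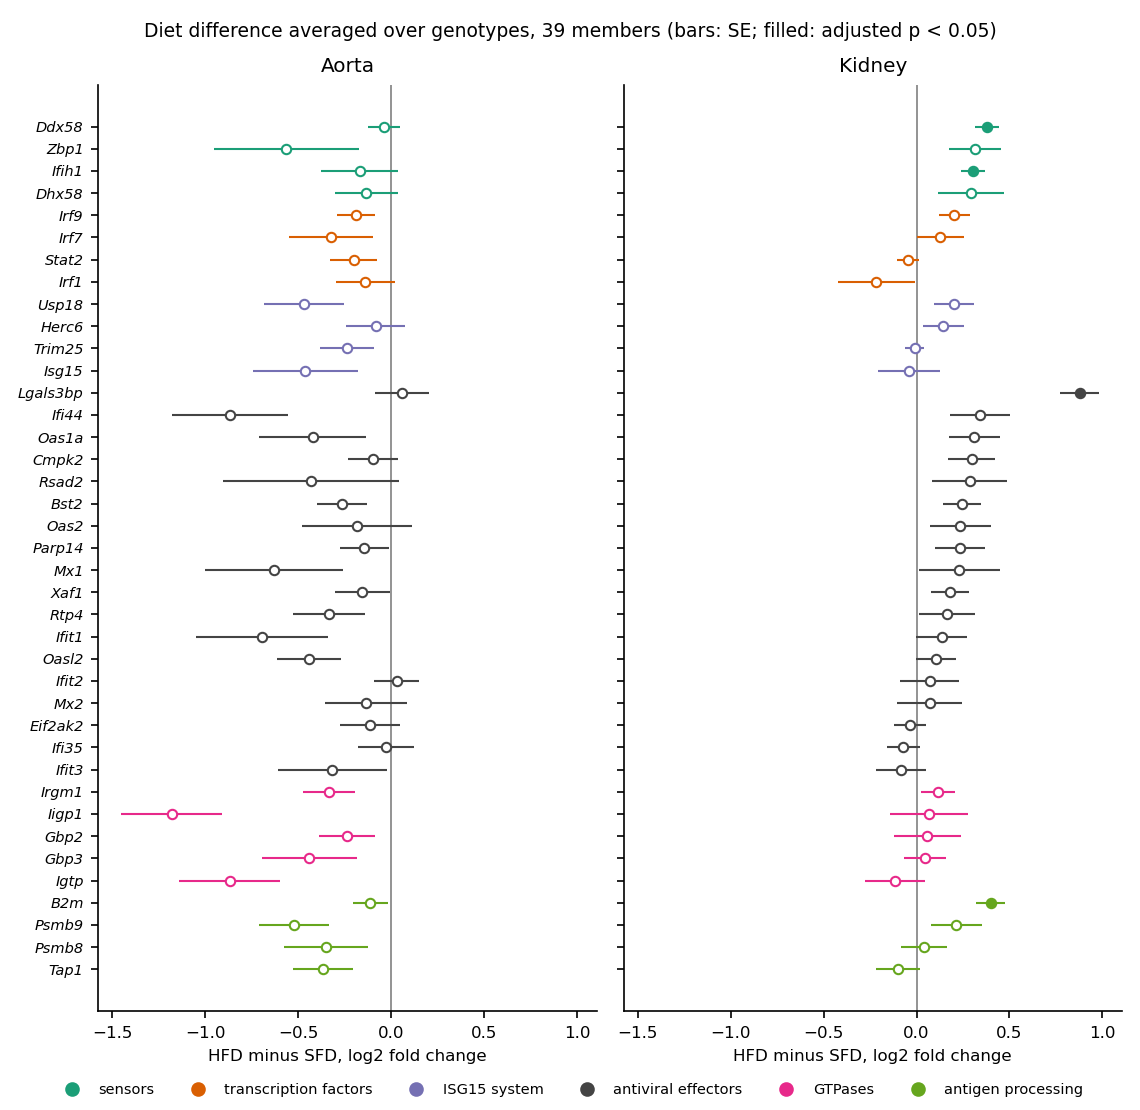
Log2 difference HFD minus SFD with its standard error for each of the 39 members, averaged over both genotypes, in kidneys and in aortas. Only Lgals3bp, Ddx58, B2m and Ifih1 in kidneys pass the test; 30 of 39 values are positive in kidneys and 2 of 39 in aortas.

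Macrophage markers moved with diet in the same kidneys. On average over genotypes 9 of 11 such markers rose (among them Cd68, Adgre1 and C1qa) and 1, Csf1r, fell, where 16.4% of all genes passed. In WT alone 5 of 11 passed, all higher, and in KO alone 0, against 6.71% and 6.34% of all genes. In each genotype 10 of 11 had higher values under HFD. The 11 together summed to 117 to 205 FPM on SFD and 176 to 251 with HFD in WT, and to 143 to 188 and 176 to 249.9 FPM in KO. Immediate-early genes, which respond within minutes to many stimuli, were at 1922, 2149 and 1981 FPM in a17 (WT SFD), a8 and a9 (KO SFD), and between 98.8 and 213 FPM in the other 17. Irf1, itself quickly inducible, was highest in the same libraries, at 33.2, 27.3 and 37.8 FPM. Without these 3 libraries B2m in KO missed the threshold (adjusted p = 0.0621). Of the remaining kidney marker lists on average over genotypes, none of 11 lymphoid, 3 neutrophil, 5 plasmacytoid dendritic, 5 red blood cell, 8 endothelial and 5 smooth muscle markers passed. The plasmacytoid dendritic list summed to 1095 to 2041 FPM in kidneys, with its marker Siglech at only 0.0875 to 0.759 FPM. Its sum in kidneys thus does not measure these cells. Of 11 immediate-early genes 7 fell, and all 11 had lower values under HFD (median -2.99). The SFD side of this comparison held a17, a8 and a9, whose sums lay far above all others. Group medians of the sum showed no fall of this size. For WT they were 119 FPM (SFD) and 150 FPM (HFD), and for KO 141 FPM (SFD) and 135 FPM (HFD). Of 8 adipocyte markers 1 rose, and of 8 tubule markers 1 rose and 2 fell. The part of macrophages in the values of Lgals3bp, Ddx58, Ifih1 and B2m was not tested.

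The rest of the interferon pathway was read from lists of related genes. None of the 12 interferon genes listed was expressed enough for testing in either tissue, with means of at most 0.0704 FPM in aortas and 0.138 FPM in kidneys. The kidney values that follow are averages over genotypes, a comparison in which 16.4% of all genes passed and 7.7% passed with higher values. Of 9 receptor and kinase genes 2 rose in HFD kidneys, the receptor chains Ifnar2 (0.29) and Il10rb (0.24). Of 9 inhibitors 1 rose, Samhd1 (0.21), a nucleotide hydrolase. Of 11 sensing genes the kinase Ikbke (0.63) and the RNA receptor Tlr3 (0.20) rose and the transcription factor Irf5 (-0.72) fell. Of 31 other interferon-stimulated genes Ifi27 (0.43) and the membrane protein Ifitm2 (0.39) rose and Parp10 (-0.59) fell. None of 16 further interferon gamma targets passed. Of 15 class I genes H2-M3 (0.36) and the chaperone Calr (0.30) rose and H2-T22 (-0.45) fell, and of 6 class II genes 1 rose, H2-DMb1 (0.62). In aortas no gene of these lists passed in any diet or genotype comparison.

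No member passed the test between genotypes in kidneys. The counts were 0 of 39 under SFD, under HFD, on average and for the difference of the diet effect between genotypes, against 0% of all genes in each. By edgeR at an unadjusted p below 0.05 they were 1, 0, 4 and 1, against 2.67%, 3.42%, 4.82% and 1.79% of all genes, and DESeq2 and the likelihood ratio test also called 0. Under SFD 30 of 39 members were higher in KO (median 0.14), and without a16 and a18 the median was -0.05. Both are WT libraries with low members, and the low KO library a7 was kept in that fit. Under HFD 16 were higher (median -0.04). The members of smallest p on average were Oas2 (-0.41 ± 0.16, adjusted p = 0.802), Trim25 (-0.12 ± 0.05) and Bst2 (0.23 ± 0.10). Under SFD they were Xaf1 (0.37 ± 0.14), Psmb9 (0.38 ± 0.20) and Oas2 (-0.42 ± 0.23), and under HFD Eif2ak2 (-0.24 ± 0.12), which encodes the kinase PKR, Oas2 and Trim25.

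Xaf1, an interferon-induced regulator of apoptosis, had the smallest p for the difference of diet effects between genotypes. It was at 3.76, 5.15, 3.76, 5.29 and 5.54 FPM in WT SFD and 7.12, 6.47, 6.46, 5.84 and 5.95 FPM in WT HFD kidneys. KO kidneys held 6.54, 4.5, 6.56, 6.01 and 6.69 FPM under SFD and 6.43, 6.83, 5.08, 5.39 and 4.89 FPM under HFD. The WT diets did not overlap and the KO diets did. The diet difference was 0.44 ± 0.14 in WT (adjusted p = 0.0748) and -0.08 ± 0.14 in KO, and their difference of -0.52 ± 0.20 did not pass (adjusted p = 1). Dhx58 (-0.71 ± 0.36) and Irgm1 (-0.23 ± 0.19) followed.

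In aortas most members had lower values under HFD, and none passed the test. On average over genotypes 37 of 39 members were lower, with a median log2 difference of -0.26, against 0.00 over all genes. In WT 34 were lower (median -0.16) and in KO 36 (median -0.38). Without R-1 and R-12 the WT median was -0.05, with 29 of 39 lower. Of the 39, 0 passed in WT, KO or on average, against 0.0132%, 0% and 0.0529% of all genes. At an unadjusted p below 0.05, edgeR's test found 1, 8 and 8 members, against 2.61%, 4.56% and 6.7% of all genes. DESeq2 called 0 in each, and the likelihood ratio test called 1, Iigp1, on average (adjusted p = 0.0133).

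Iigp1, an interferon gamma-induced GTPase that attacks pathogen vacuoles, had the smallest p. It was at 27.7, 26.7, 12.6, 30.7 and 28.7 FPM in WT SFD aortas and 14.3, 13.5, 11.7, 20.8 and 13.5 FPM in WT HFD. In KO it was at 26.4, 27.4, 28.8, 34.2 and 134.8 FPM under SFD and 13.7, 21.1, 19.2, 15.5 and 14.2 FPM under HFD. All KO HFD libraries lay below all KO SFD libraries, and in WT only R-3 of the SFD libraries lay within the HFD range. The average log2 difference was -1.18 ± 0.27 (adjusted p = 0.214), and without R-15, the KO SFD library at 134.8 FPM, it was -0.79 ± 0.15 (adjusted p = 0.0854). In WT it was -0.78 ± 0.38 and in KO -1.59 ± 0.39 (adjusted p = 0.987).

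Igtp, a GTPase of the same family, was at 14.8, 21.2, 7.35, 14.3 and 11.4 FPM in WT SFD and 10.4, 12.3, 8.86, 12.0 and 9.95 FPM in WT HFD aortas. KO aortas held 28.2, 14.7, 14.4, 16.7 and 78.5 FPM under SFD and 13.2, 13, 12.9, 11.7 and 8.10 FPM under HFD. The diets overlapped in WT and not in KO. Its average difference was -0.87 ± 0.27 (adjusted p = 0.476), and without R-15 it was -0.51 ± 0.17. Ifi44, the lowest of the members in aortas, gave -0.87 ± 0.31 (adjusted p = 0.539), and Psmb9, an immunoproteasome subunit, -0.74 ± 0.27 in KO. The 4 genes that rose in kidneys were near 0 in aortas: Lgals3bp 0.06 ± 0.15, Ddx58 -0.04 ± 0.09, B2m -0.11 ± 0.09 and Ifih1 -0.17 ± 0.21.

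Between genotypes the aorta members lay on the other side, again with none past the test. Under SFD 37 of 39 were higher in KO (median 0.31), under HFD 29 (median 0.11) and on average 34 (median 0.24), against medians of 0.00, 0.01 and 0.00 over all genes. Of the 39, 0 passed in each of these and for the difference of diet effects between genotypes, against 0%, 0%, 0.0198% and 0% of all genes. At an unadjusted p below 0.05, edgeR's test found 7, 1, 9 and 1 members, against 2.28%, 5.85%, 8.78% and 0.84% of all genes, and DESeq2 and the likelihood ratio test called 0. The largest values under SFD were in GTPase genes, Igtp at 1.14 ± 0.38, Gbp3 at 1.01 ± 0.36 and Iigp1 at 0.99 ± 0.38. Tap1, the peptide transporter, gave 0.59 ± 0.23 under SFD and 0.46 ± 0.16 on average (adjusted p = 0.447).

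Much of this rested on 1 library. R-15 (KO SFD) was the highest of 20 aortas for 27 of the 39 members. Gbp3, which encodes a guanylate-binding protein, was at 13.5, 12.5, 5.6, 14.3 and 10.3 FPM in WT SFD and 19.7, 13.5, 12.8, 14.6 and 53.0 FPM in KO SFD aortas. Tap1 was at 15.4, 18.4, 10.1, 17.3 and 14.4 FPM in WT SFD and 25, 15.4, 17.1, 15.9 and 40.9 FPM in KO SFD. The groups overlapped for both genes, with R-15 the highest. Without R-15 the KO difference under SFD was 0.43 ± 0.27 for Gbp3, 0.28 ± 0.17 for Tap1, 0.42 ± 0.25 for Igtp and 0.21 ± 0.22 for Iigp1. The median over the members was then 0.09, with 35 of 39 higher, and on average over diets it was 0.14, with 30 higher. Without R-11, R-15 and R-16 the average had a median of 0.09, with 27 higher. The difference of diet effects between genotypes had a median of -0.23 over the members, and of -0.02 without R-15. In the diet comparison without R-15, 35 of 39 members stayed lower on average (median -0.17) and 31 in KO (median -0.16). R-15 summed to 866 FPM for macrophage markers, the highest of the KO SFD aortas but far below R-16. Its lymphoid markers summed to 4.23 FPM, within the range of most aortas. Its endothelial markers summed to 1742 FPM, with only R-14 (KO SFD) higher, at 1914 FPM. Ifng was too low for testing and at 0 in most aortas, R-15 included, so that this 0 does not set R-15 apart.

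**Figure D4:**
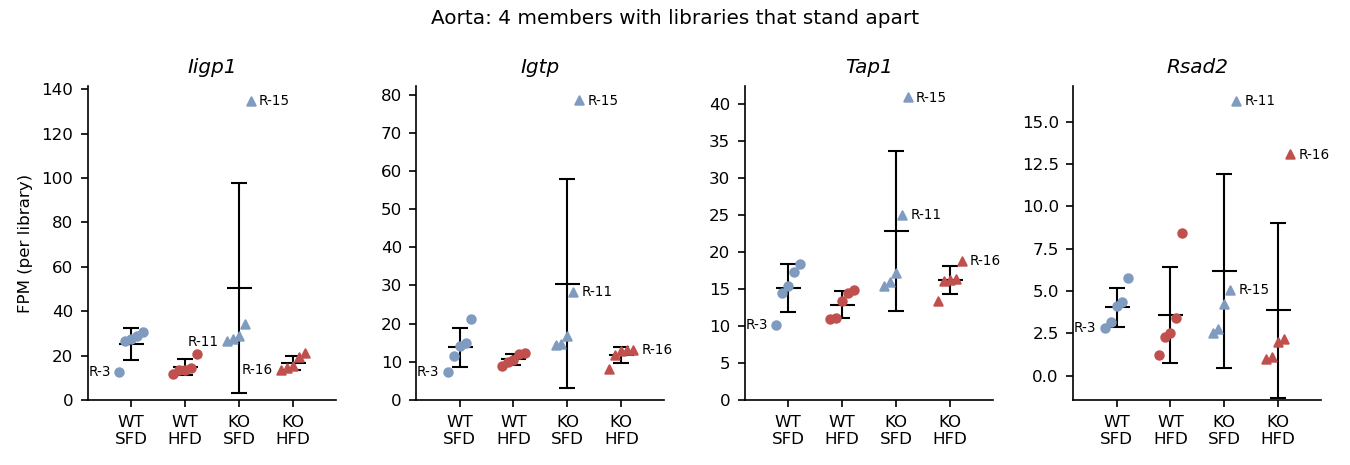
FPM of Iigp1, Igtp, Tap1 and Rsad2 in each of the 20 aorta libraries by genotype and diet. R-15, a KO SFD library, lies above all others in Iigp1, Igtp and Tap1, at 134.8 FPM for Iigp1 against 34.2 FPM for the next of its group. For Rsad2 the highest are R-11 at 16.2 FPM and R-16 at 13.1 FPM, with R-15 at 5.08 FPM.

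At the other end, R-3 (WT SFD) and R-10 (WT HFD) were each the lowest of 20 for 13 members. R-3 and R-8 (WT HFD) had the lowest sums of endothelial markers, 334 and 395 FPM, against up to 1914 FPM in other aortas. R-8 was the lowest for only 1 member, and R-10 had an endothelial sum of 857 FPM, the median of its group. R-16 (KO HFD) had a macrophage marker sum of 2535 FPM, against 353 to 866 in all others, and lymphoid markers summed to 122 FPM there and 92.6 FPM in R-11 (KO SFD), against 2.22 to 16.4 FPM elsewhere. R-16 held the highest Oas2 value, 7.10 FPM. Oas2 was at 1.11, 1.70, 1.46, 0.78 and 1.35 FPM in WT HFD and 7.10, 1.51, 1.17, 2.19 and 1.63 FPM in KO HFD, which overlapped. Its KO difference under HFD was 1.08 ± 0.43, its diet difference in WT -0.92 ± 0.42, and its difference of diet effects between genotypes 1.47 ± 0.59, the smallest p of that comparison (adjusted p = 1). Without R-16 the KO difference under HFD was 0.34 and the difference of diet effects 0.73. Rsad2 was at 16.2 FPM in R-11 and 13.1 FPM in R-16, and between 0.999 and 8.41 FPM in the other 18. Of the aorta marker lists, 1 of 3 plasmacytoid dendritic markers tested (Siglech, -1.11 ± 0.18, adjusted p = 0.032) and 1 of 8 adipocyte markers (Cfd, -2.44) fell under HFD on average. None of the 10 lymphoid, 11 macrophage, 3 neutrophil, 6 red blood cell, 8 endothelial, 6 smooth muscle and 11 immediate-early genes passed. In KO on average all 10 lymphoid (median 2.07), 11 macrophage (0.41) and 11 immediate-early genes (1.11) had higher values. So had 7 of 8 endothelial markers (0.46), and all 8 adipocyte markers had lower ones (-0.96). Group medians of the lymphoid sum were 4.43 FPM in WT SFD, 8.75 in KO SFD, 8.11 in WT HFD and 5.49 in KO HFD. Immediate-early genes summed to 15896 FPM in R-19 and 6724 FPM in R-18, both KO HFD, and to 523 to 4116 FPM elsewhere. Under HFD all 11 macrophage markers had lower values in WT (median -0.45) and 4 of 11 in KO (median 0.06), and all 11 immediate-early genes had higher values on average (0.74). The endothelial markers Cdh5 and Esam, the smooth muscle markers Tagln and Cnn1 and the T cell markers Cd3e and Cd3g were listed at 0 in every library, as were whole chromosomes of the tables, so that these zeros do not show absent expression. Aortas and kidneys otherwise held the markers of their tissue, smooth muscle sums of 25923 to 41473 FPM in aortas and tubule sums of 23267 to 53450 FPM in kidneys. The part of these cell types in the members' values was not tested.

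Among the related lists, none of whose genes passed in aortas, some lay on the same side as the members and others near 0. Under HFD on average 17 of 17 interferon gamma targets outside the members (median -0.87), 6 of 6 class II genes (-0.82), 25 of 30 other interferon-stimulated genes (-0.19) and 11 of 15 class I genes (-0.12) had lower values. Receptors and kinases (6 of 9 lower), inhibitors (5 of 9) and sensing genes (5 of 11) had medians of -0.01, 0.00 and 0.01. In KO on average 17 of 17 interferon gamma targets had higher values (median 0.71), as had 6 of 6 class II genes (0.73), 23 of 30 other stimulated genes (0.15), 11 of 15 class I genes (0.13), 7 of 9 receptors and kinases (0.06), 6 of 9 inhibitors (0.22) and 8 of 11 sensing genes (0.15). The diet and genotype comparisons share libraries, R-15 among them.

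The diet effect differed between tissues for 5 members in a joint fit, 12.8% of members, against 6.5% of all genes. This comparison was added after the data were seen. The kidney diet difference exceeded that of aortas by 0.81 ± 0.18 for Lgals3bp (adjusted p = 0.00498), by 0.51 ± 0.12 for B2m (adjusted p = 0.00929) and by 0.41 ± 0.11 for Ddx58 (adjusted p = 0.0142). For Ifi44 it exceeded it by 1.21 ± 0.34 (adjusted p = 0.0229) and for Iigp1 by 1.24 ± 0.35 (adjusted p = 0.0252). The first 3 rose in kidneys and did not pass in aortas, whereas Ifi44 and Iigp1 had their lower values in HFD aortas and did not pass in kidneys. Of all 39 members 37 had a difference in this direction, with a median of 0.42. Without the near-identical pairs 2 members passed, and without R-15, a16 and a18 also 2.

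Within groups the members varied together. The SD of log2 levels within groups had a median of 0.39 over the members in aortas, against 0.31 over all genes, and of 0.27 against 0.23 in kidneys. It lay above the median of all genes for 31 members in aortas and 27 in kidneys. The most variable were Rsad2 (0.94), Ifit1 (0.76) and Zbp1 (0.71), the last a sensor of Z-form nucleic acid, in aortas, and Iigp1 (0.51), Rsad2 (0.50) and Irf1 (0.47) in kidneys. As a description over 20 libraries, which share their library's depth and cell makeup, deviations from the group means of 741 member pairs had a median Pearson r of 0.51 in aortas and 0.43 in kidneys. Without R-15 and R-3 it was 0.40, and without a7 and a18 it was 0.36. Rtp4 (r = 0.90) and Gbp3 (0.89) followed the mean of the members, themselves included, most closely in aortas, and Eif2ak2 (-0.13) least. In kidneys they were Lgals3bp (0.89) and Gbp3 (0.88), with Ifi35 (0.07) least. The genes outside the list with the most similar deviations were H2-K1 (0.96), Phf11b (0.91), H2-Aa (0.90), Ifi47 (0.88) and H2-T23 (0.87) in aortas. In kidneys they were Ifi47 (0.90), Ifi211 (0.89), Gm4951 (0.86), AW112010 (0.85) and H2-DMa (0.84).

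**Figure D5:**
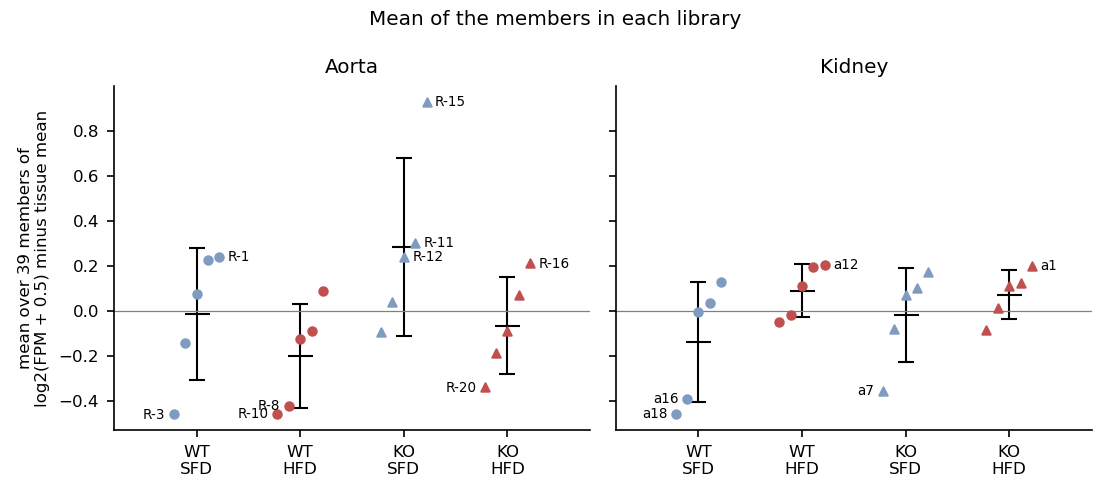
Mean of the members' centred log2 levels in each library, by group, for aortas and kidneys (points are libraries, bars the group mean ± SD, n = 5). R-15 stands at 0.93 in aortas with the next highest at 0.30, and a16 and a18 are the lowest kidneys at -0.39 and -0.46.

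Some members share sequence with other genes, so that counts may be split between copies. Oas1a matched Oas1g over 100% of its longest transcript, Ifit3 matched Ifit3b over 97.4%, Isg15 another gene over 63.8% and Mx2 matched Mx1 over 34.8%, at 95% identity or more over at least 100 bases. The 4 members called in kidneys shared 0%.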

How the data were processed

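RNA of 20 aortas and 20 kidneys was read by oligo(dT) sequencing, and the authors deposited raw counts per gene, 1 table per tissue. Per the labels reads were aligned with HISAT2 2.1.0 to GRCm38 (mm10), whereas the methods name TopHat2, and both name featureCounts for the counts. Strand setting and the treatment of multimapped reads are not given in the sources used here, so members with near-identical copies are uncertain. All genes of chromosomes 9, X and Y and of the mitochondrial genome, and those of part of chromosome 8, were listed at 0 in every library of both tables. No member was among them, but pathway genes such as Tyk2, Tlr7, Tlr9, Myd88 and Irf8 were, and a 0 there does not show absent expression.

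Counts were fitted per tissue with edgeR 4.0.16 in R 4.3.3 (TMM, filterByExpr, robust quasi-likelihood test, Benjamini-Hochberg adjustment over all tested genes, called at an adjusted p below 0.05) as 4 groups of 5. The contrasts were HFD against SFD and KO against WT in each stratum and on average, and their difference. Both tissues were joined in 1 fit for tissue comparisons. FPM are counts divided by TMM-scaled library sizes (CPM as edgeR gives it), and standard errors are the absolute log2 difference over the root of F. Alternatives included DESeq2 1.42.0, no filter and left-out libraries. Tests were checked on simulated data. Totals limit precision through counting error only.

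The members and lists were chosen with earlier results of these data known. Genes named are those called, up to 10 per comparison, the 3 of smallest p where fewer passed, and the 3 highest, lowest and most variable members per tissue. The lists held pathway genes (ligands, receptors and kinases, inhibitors, sensing, other stimulated genes, interferon gamma targets, class I and II), cell type markers and immediate-early genes. A gene that the naming rule also covers is not reported here.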

Additional observations from a re-analysis of the deposited data

Results flagged for a closer look

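Within groups of 5, single libraries stood far from the rest of their group in 14 of the 176 member and group combinations examined. Chance alone would mark about 1 in 20, or 8.8 of 176, if the combinations were independent. They share libraries, so that 1 library can be marked for several genes. The 176 also did not cover all 39 members in all 8 groups. The count of 14 can therefore not be judged against 8.8. In aortas R-15 (KO SFD) was high for 5 genes, Iigp1 at 134.8 FPM (next 34.2), Gbp2 at 96.6 FPM (next 40.9), Igtp at 78.5 FPM (next 28.2), Gbp3 at 53.0 FPM (next 19.7) and Irgm1 at 52.9 FPM (next 26.3), all interferon-inducible GTPases. R-11 (KO SFD) was high for Rsad2 at 16.2 FPM (next 5.08). R-16 (KO HFD) was high for Rsad2 at 13.1 FPM (next 2.19) and Oas2 at 7.10 FPM (next 2.19). R-7 (WT HFD) was high for Ifit1 at 12.6 FPM (next 4.14) and R-9 (WT HFD) for Iigp1 at 20.8 FPM (next 14.3). R-3 (WT SFD) was low for Iigp1 at 12.6 FPM (next 26.7) and Irgm1 at 16.6 FPM (next 22.4). In kidneys a12 (WT HFD) was high for Bst2 at 27.0 FPM (next 18.98), and this library was nearly identical to a1 of another group. a6 (KO SFD) was low for Rsad2 at 23.6 FPM (next 37.1).

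The diet effect differed between tissues in the joint fit for 5 members. On the log2 scale, the kidney effect minus the aorta effect was 0.41 for Ddx58, 1.21 for Ifi44, 0.81 for Lgals3bp, 1.24 for Iigp1 and 0.51 for B2m, with edgeR adjusted p-values of 0.0142, 0.0229, 0.00498, 0.0252 and 0.00929.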

How the results depend on the processing

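Of the counts of members called, 185 values under other settings stayed within 1.5 times and 13 moved. In aortas the likelihood ratio test called 1 member for the diet average. In WT kidneys DESeq2 called 5 for diet, leaving out a16 and a18 gave 1 and the study's thresholds 1, and leaving out 1 library gave 2 to 5. In KO kidneys the study's thresholds gave 1, and leaving out 1 library 1 to 4, the lowest without a7. For the kidney diet average these thresholds gave 1, and leaving out 1 library 4 to 5. Between tissues, WT SFD libraries alone gave 17 called members and the thresholds 16, and leaving out 1 library 27 to 30. For the difference of diet effects between tissues, leaving out the near-identical pairs gave 2, leaving out R-15, a16 and a18 gave 2, and leaving out 1 library 4 to 8. None of the values for single named genes reversed, 695 stayed on their side of the threshold, 23 were no longer called and 1 became called. The calls that were lost included Ddx58 in KO kidneys without a7 (adjusted p = 0.0513, edgeR) and Ifih1 in WT kidneys with no filter on low counts (adjusted p = 0.0837). All 4 kidney calls of the diet average held in each of the 20 fits without 1 library. Without R-1 and R-12, 21 genes were called between genotypes under HFD in aortas and 131 on average, none of them members. Leaving out R-15, a16 and a18, or a8, a9 and a17, was chosen after seeing the data. No paired analysis was possible because no group shares a replicate number with another. The labels do not say whether an aorta and a kidney came from the same mouse, and the joint fit treated all 40 libraries as independent.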
